A study of Homo sapiens with 6 samples.

Results

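The genes described here build and control the junctions that hold epithelial cells together: tight junction membrane proteins, the plaque and polarity proteins beneath them, desmosome proteins, EPCAM with the membrane protease matriptase, and 3 regulators of epithelial identity. They were taken from a list of 52 gene symbols. A gene counted as measured where the platform annotation gave a probe set that symbol, and the brightest probe set by the mean of 6 arrays stood for the gene. By this rule 41 genes were measured, each by 1 probe set, out of 14884 named genes on the array. The other 11 (F11R, MPP5, INADL, CTNNA1, CTNNB1, CTNND1, ELF3, SPINT1, SPINT2, GJB2 and GJA1) had no probe set under the listed symbol in the annotation used here, so the catenin and gap junction members were not analysed here.

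The cells were HCT116, an established human colorectal carcinoma line whose name some labels spell HTC116, grown in McCoy's medium with serum. Total RNA was measured on whole-transcript arrays in 2 groups of 3: stably transduced cells with an empty vector (control), and stably transduced cells labelled as overexpressing miR-196b (here the miR-196b arrays). No drug, time course or other genotype was part of the design. The design text speaks of biological replicates but not of separate transductions. The p-values therefore cover only the variation among these cultures, part of which may be technical. The promoter of the vector is not given in the sources used here.

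Tight junctions seal the space between neighbouring epithelial cells. Claudins and occludin cross the membrane, ZO proteins and cingulin tie them to the actin cytoskeleton, and the PAR and Crumbs complexes place the belt near the apical surface. Desmosomes are spot welds that anchor keratin filaments: desmocollins and desmogleins bind between cells, and plakoglobin, plakophilins, desmoplakin and other plakins form the plaque inside. Colon carcinoma cells commonly keep many of these proteins, and factors of the ZEB and SNAI families are known for repressing junction genes through E-box sequences.

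The microRNA named in the labels is shown with a close relative because the named probe set that differed most on these arrays carries the relative's name. Capitals mark the seed, bases 2 to 8, in both RefSeq sequences (GRCh38.p14).
hsa-miR-196b-5p (chr7:27169528-27169549, minus strand): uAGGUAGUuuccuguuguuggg
hsa-miR-196a-5p, here from MIR196A2 (chr12:53991762-53991783, plus strand): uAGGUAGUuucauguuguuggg
The seeds are the same, and the mature forms differ at 1 base, C12A, counted from the 5′ end with miR-196b-5p first. The probe set of MIR196B was at 7.97 ± 0.102 in control and 8.05 ± 0.144 in the miR-196b arrays (log2 signal, SD, n = 3 each), while that of MIR196A2 was at 3.06 ± 0.167 and 10.61 ± 0.149. Neither probe set gives the level of a mature microRNA, because the array detects precursor RNA. Directions below follow the labels of the arrays.

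On the 6 arrays the deposited log2 values had medians of 4.34 to 4.37, and arrays correlated at r = 0.992 to 0.995 across named probe sets, which are not independent replicates. Of the markers of colon epithelium, 8 of 10 were measured; their mean level per array was 7.44 to 7.49 in control and 7.32 to 7.45 in the miR-196b arrays (log2). Of these 8, 2 were higher and 6 lower in the miR-196b arrays and 0 passed the test in limma. The groups did not overlap for 2 (25.0%), both lower, against 17.2% of all named probe sets (7.18% lower). These were KRT18, a keratin of simple epithelia, and the intestinal transcription factor CDX2. KRT18 was at 11.26 to 11.32 in control and 11.04 to 11.10 in the miR-196b arrays (log2 difference -0.22, limma adjusted p = 0.405). CDX2 was at 6.01 to 6.18 in control and 5.66 to 5.96 in the miR-196b arrays (log2 difference -0.26, limma adjusted p = 0.481). The dimmer probe set of KRT18 overlapped (-0.10), KRT19, another such keratin, was at 9.99 to 10.21 in control and 10.00 to 10.21 in the miR-196b arrays, and CDH1, which encodes E-cadherin, was not analysed here. For other cell types, 3 of 8 fibroblast, 3 of 7 blood cell and 3 of 5 endothelial markers were measured. Their mean levels per array were 3.08 to 3.20, 4.85 to 4.92 and 3.54 to 3.81 in control, and 3.06 to 3.22, 4.82 to 5.06 and 3.62 to 3.63 in the miR-196b arrays. The blood cell mean joined unlike levels. CD68 lay above the dimmest 40% of named probe sets, at 7.66 to 7.80 in control and 7.25 to 7.83 in the miR-196b arrays. In each of the fibroblast, blood cell and endothelial lists, 1 marker was higher and 2 were lower in the miR-196b arrays. The lower fibroblast markers were THY1 (log2 difference -0.16) and DCN (-0.02), and the lower blood cell markers CD68 (-0.20) and CD14 (-0.01). Groups did not overlap for 1 of 3 fibroblast markers (LUM, log2 difference 0.18) and 1 of 3 blood cell markers (CSF1R, 0.31), or 33.3% each. Both were higher in the miR-196b arrays and lay among the dimmest 40% of named probe sets. For endothelial markers it was 0 of 3, and over all named probe sets 17.2% (10.0% higher). None of these 9 markers passed the test, and the part of any marker in the junction gene values was not tested.

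Against the control, no junction gene passed the test, and most differences were small. Of 41 measured genes, 0 passed in limma (adjusted p below 0.05 over 16098 named probe sets; adjusted p = 0.318 to 0.996), where 9 of all named probe sets, or 0.0559%, did. At an unadjusted p below 0.05 there were 6 of 41 (14.6%), 5 higher and 1 lower, against 9.87% of all named probe sets (5.73% higher and 4.14% lower). The groups did not overlap for 10 of 41 genes (24.4%), 8 higher and 2 lower in the miR-196b arrays, against 17.2% of all (10.0% higher and 7.18% lower). A difference of over 1.2-fold was measured for 6 (CGN, TJP3, DSC3, CLDN4, CLDN6 and CLDN16), or 14.6%, against 9.75% of all. In bulk RNA, fewer cells with a transcript and less of it per cell cannot be told apart. In sign, 29 of 41 values were higher in the miR-196b arrays and 12 lower, where 52.0% of all named probe sets were higher, and the median log2 difference was 0.06 beside 0.0069 for all. The number higher was 27 of 41 after median centring and 26 after a repeated quantile normalization. With an array left out it was 25 to 29, lowest without control replicate 1. The 95% interval from the fit lay within 1.5-fold in both directions for 34 of 41 genes (82.9%), against 88.1% of all named probe sets. The widest half-interval was 0.54 on the log2 scale (CLDN8) and the narrowest 0.16 (GRHL2). Of the 41 probe sets, 31 lay above the dimmest 40% of named probe sets.

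**Figure D1:**
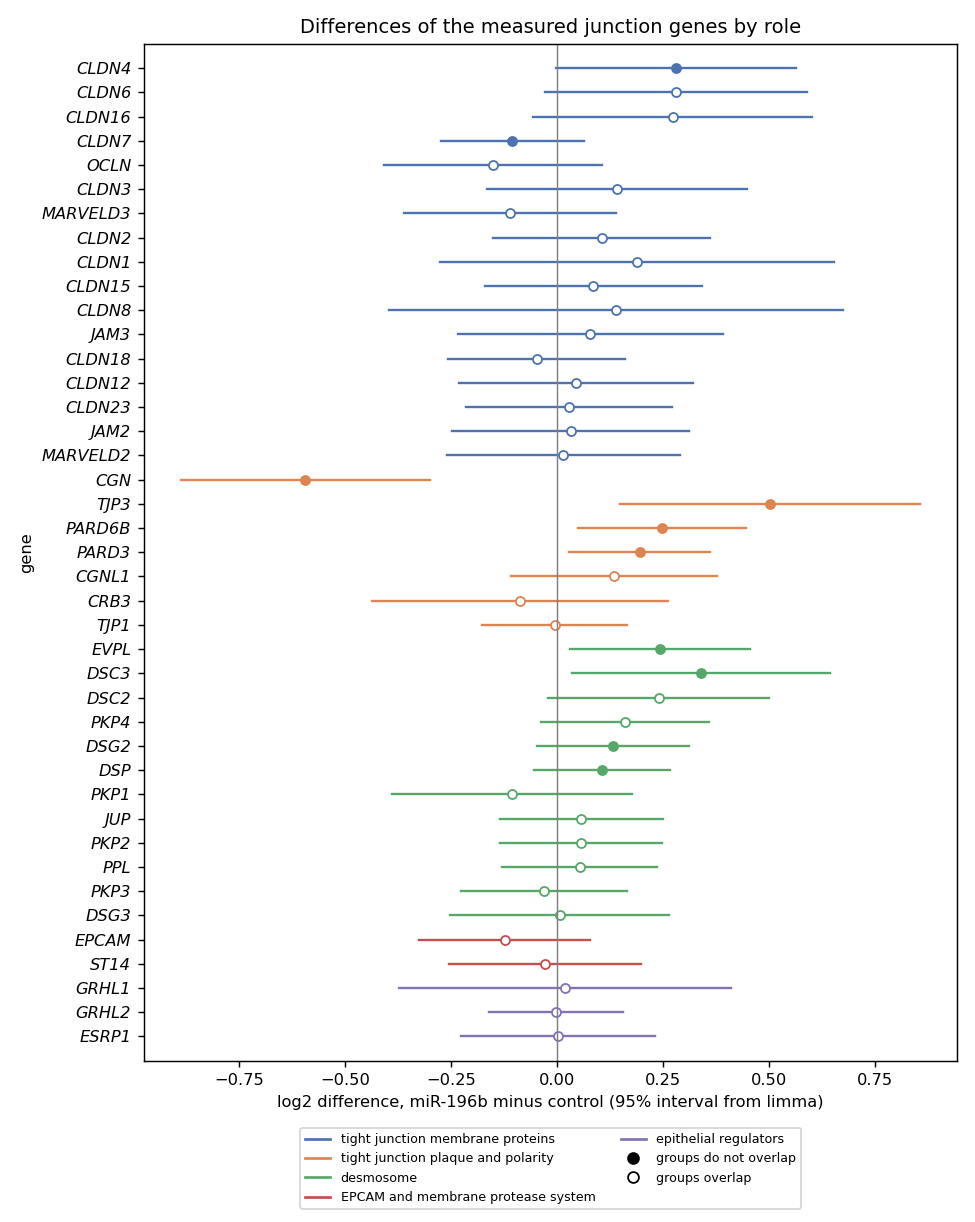
Differences in log2 signal, miR-196b arrays minus control, for the 41 measured junction genes (points) with 95% intervals from the limma fit (lines), coloured by role; filled points mark the 10 genes whose 2 groups of 3 arrays do not overlap. CGN at -0.59 and TJP3 at 0.50 lie farthest from 0, and the intervals of 6 genes exclude 0 before adjustment.

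The tight junction plaque and polarity genes held the largest differences, and these went in opposite directions. Of 7 measured, 4 were higher and 3 lower (median log2 difference 0.13), 0 passed over all probe sets, and 4 had groups that did not overlap (1 lower and 3 higher), a share of 57.1% of few genes, against 17.2% of all named probe sets.

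CGN encodes cingulin, a plaque protein that links the tight junction to actin and myosin. Its log2 signal was 5.48, 5.47 and 5.53 in control and 4.61, 5.01 and 5.06 in the miR-196b arrays. All 3 miR-196b arrays lay below all 3 control arrays, with a gap of 0.40 between the groups, and replicate 1 of the miR-196b arrays was the lowest of the 6. The log2 difference was -0.59 with an SE of 0.12, or 1.51-fold lower, with a 95% interval of -0.89 to -0.30. It ranked 96 of 16098 by unadjusted p (0.0019), and its adjusted p in limma was 0.318, above the threshold. CGNL1, or paracingulin, the close relative of cingulin, did not show this difference: its values were 5.24 to 5.58 in control and 5.56 to 5.62 in the miR-196b arrays (log2 difference 0.13, 95% interval -0.11 to 0.38).

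TJP3 encodes ZO-3, a scaffold that binds claudin tails. Its log2 signal was 7.10, 6.55 and 6.84 in control and 7.18, 7.33 and 7.49 in the miR-196b arrays. The groups did not overlap, although the gap was only 0.08, because control replicate 1 lay close to the miR-196b arrays. The log2 difference was 0.50 (SE 0.15), or 1.42-fold higher (limma adjusted p = 0.404). TJP1, which encodes ZO-1, the founding member of that scaffold family, was at 10.00 to 10.13 in control and 10.04 to 10.10 in the miR-196b arrays. Its log2 difference was -0.0054 with a 95% interval of -0.18 to 0.17.

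The polarity genes PARD6B and PARD3 encode partners in the PAR complex, which sets the apical domain. PARD6B was at 8.65, 8.76 and 8.89 in control and 9.01, 8.98 and 9.06 in the miR-196b arrays. PARD3 was at 8.65, 8.65 and 8.67 in control and 8.91, 8.79 and 8.86 in the miR-196b arrays. In both genes every miR-196b array lay above every control array, and the control values of PARD3 had an SD of 0.0113. The log2 differences were 0.25 with an SE of 0.08 for PARD6B and 0.19 with an SE of 0.07 for PARD3, neither past the test (limma adjusted p = 0.437 and 0.455). CRB3, a Crumbs protein of the apical membrane, overlapped between groups, at 6.42 to 6.72 in control and 6.22 to 6.76 in the miR-196b arrays (log2 difference -0.09, 95% interval -0.44 to 0.26). PATJ, the current symbol of the listed INADL and a scaffold of the Crumbs complex, was not counted among the 41. It was at 8.82 to 8.95 in control and 8.97 to 9.09 in the miR-196b arrays (log2 difference 0.14, limma adjusted p = 0.587).

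**Figure D2:**
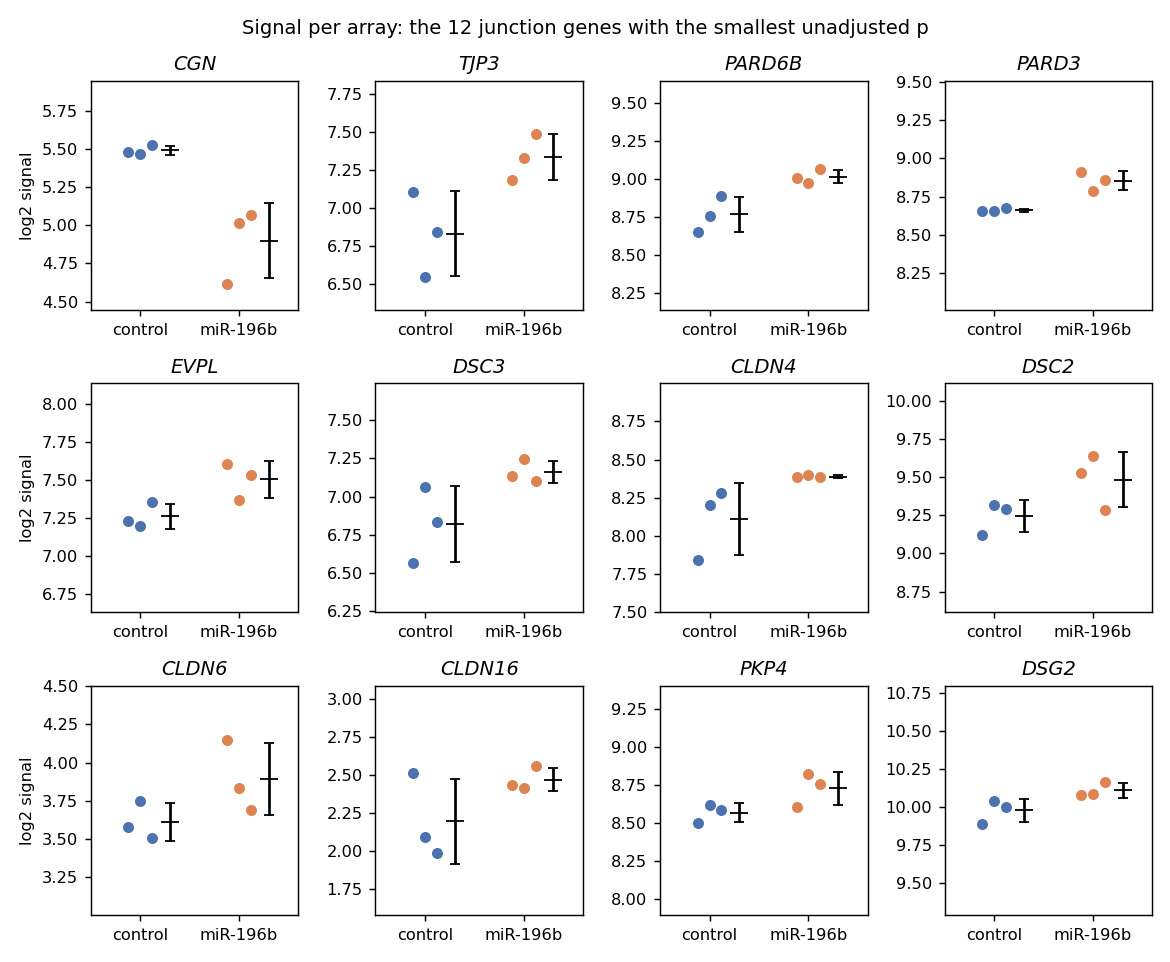
Log2 signal in each array (points, left to right in the order of the replicate labels) for the 12 junction genes with the smallest unadjusted p, with the mean and SD of 3 arrays per group beside the points; every panel spans the same log2 range, and the axes do not start at 0. CGN is lower in all 3 miR-196b arrays, at 4.61 to 5.06 against 5.47 to 5.53, and the other 11 genes have higher means there.

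Most desmosome genes had slightly higher values in the miR-196b arrays, none past the test. All 12 listed genes were measured, 10 higher and 2 lower in the miR-196b arrays, with a median log2 difference of 0.08. None passed over all probe sets (limma adjusted p = 0.466 to 0.989), and 4 of 12 (33.3%) had groups that did not overlap, all higher, against 17.2% of all named probe sets (10.0% higher). The number higher was 9 of 12 after median centring and 10 after a repeated quantile normalization. The mean over the 12 genes was 7.69, 7.75 and 7.79 in the control arrays and 7.81, 7.86 and 7.86 in the miR-196b arrays, a separation with no test.

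Among the desmosomal cadherins, which bridge the gap between cells, all 4 had higher means in the miR-196b arrays, and DSG3 turned sign after median centring (-0.0020). DSC3, or desmocollin 3, was at 6.57, 7.07 and 6.83 in control and 7.13, 7.24 and 7.10 in the miR-196b arrays. The groups did not overlap, with control replicate 2 only 0.04 below the lowest miR-196b array. The log2 difference of DSC3 was 0.34 ± 0.13 (SE), or 1.26-fold higher (limma adjusted p = 0.477), and 0.21 without control replicate 1. DSC2, the desmocollin of simple epithelia, was at 9.12, 9.32 and 9.29 in control and 9.53, 9.64 and 9.28 in the miR-196b arrays. Replicate 3 of the miR-196b arrays fell within the control range, so the groups overlapped (log2 difference 0.24, SE 0.11, limma adjusted p = 0.523). DSG2, the widely expressed desmoglein, was at 9.89, 10.04 and 10.00 in control and 10.08, 10.08 and 10.17 in the miR-196b arrays. Its groups did not overlap, and its log2 difference was 0.13 (SE 0.08, limma adjusted p = 0.601). DSG3, a desmoglein of stratified epithelia, lay among the dimmest 40% of named probe sets in both groups (3.06 to 3.39 and 3.18 to 3.37).

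In the desmosomal plaque, EVPL encodes envoplakin, a plakin that reaches towards keratin filaments. Its log2 signal was 7.23, 7.20 and 7.35 in control and 7.61, 7.37 and 7.53 in the miR-196b arrays. The groups were 0.02 apart, with control replicate 3 just below replicate 2 of the miR-196b arrays. The log2 difference was 0.24 with an SE of 0.09, or 1.18-fold higher (limma adjusted p = 0.466). PPL, or periplakin, the usual partner of envoplakin, had overlapping groups at 7.37 to 7.54 and 7.45 to 7.55 (log2 difference 0.05, 95% interval -0.13 to 0.24). DSP, or desmoplakin, the main keratin anchor, was at 10.35, 10.39 and 10.32 in control and 10.43, 10.48 and 10.48 in the miR-196b arrays. It had one of the smaller differences among the 10 genes without overlap (log2 difference 0.11, SE 0.07, limma adjusted p = 0.638). JUP, or plakoglobin, which desmosomes share with adherens junctions, overlapped at 10.03 to 10.13 and 10.04 to 10.24.

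The plakophilins, armadillo proteins of the plaque, split with 2 higher and 2 lower, and all 4 overlapped. PKP4 was at 8.50, 8.62 and 8.58 in control and 8.61, 8.82 and 8.76 in the miR-196b arrays (log2 difference 0.16, SE 0.08, limma adjusted p = 0.572). PKP2 (0.06), PKP3 (-0.03) and PKP1 (-0.11) had log2 differences whose 95% intervals held 0, and PKP1 was among the dimmest 40% of probe sets.

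Of 17 tight junction membrane genes, 13 were higher and 4 lower (median log2 difference 0.08), and none passed the test. An unadjusted p below 0.05 was reached by 0, against 9.87% of all named probe sets. The groups did not overlap for 2 (11.8%), CLDN4 and CLDN7, in opposite directions, against 17.2% of all named probe sets. Of these 17 probe sets, 8 lay in the dimmest 40% of named probe sets (CLDN1, CLDN6, CLDN8, CLDN12, CLDN16, CLDN18, JAM2 and JAM3), and their level was not tested against background.

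CLDN4, a sealing claudin, was at 7.84, 8.20 and 8.28 in control and 8.38, 8.40 and 8.39 in the miR-196b arrays. The miR-196b arrays had an SD of 0.0070 and lay above every control array, and control replicate 1 was the lowest. The log2 difference was 0.28 (SE 0.12, limma adjusted p = 0.504), and 0.15 without control replicate 1. CLDN7, a claudin of the colon, was at 11.30, 11.35 and 11.31 in control and 11.23, 11.14 and 11.27 in the miR-196b arrays. Its log2 difference was -0.11 (SE 0.07, limma adjusted p = 0.650), and the gap between its groups was 0.04. CLDN3, another sealing claudin, overlapped at 7.63 to 7.98 and 7.80 to 8.18 (0.14, 95% interval -0.17 to 0.45).

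The pore-forming claudins CLDN2 and CLDN15, which let small ions pass between cells, had log2 differences of 0.11 and 0.09 with overlapping groups. CLDN6, a claudin of embryonic epithelia, was at 3.58, 3.75 and 3.50 in control and 4.15, 3.84 and 3.69 in the miR-196b arrays (log2 difference 0.28, SE 0.13, limma adjusted p = 0.527). CLDN16, known from magnesium reabsorption in the kidney, was at 2.51, 2.09 and 1.99 in control and 2.44, 2.41 and 2.56 in the miR-196b arrays (0.27, SE 0.14, limma adjusted p = 0.566). Both overlapped and both were dim. Without replicate 1 of the miR-196b arrays the difference of CLDN6 was 0.15, and that of CLDN16 was 0.43 without control replicate 1 and 0.17 without control replicate 3. CLDN1 and CLDN8 had their spread in the miR-196b arrays, at 3.14 to 3.86 and 2.08 to 3.03, against 3.27 to 3.57 and 2.22 to 2.42 in control. CLDN12 (0.04), CLDN18 (-0.05) and CLDN23 (0.03) had the smallest differences of the family. Over the 12 measured claudins 10 were higher, a count that was 7 without replicate 1 of the miR-196b arrays.

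OCLN, or occludin, had a log2 difference of -0.15 with a 95% interval of -0.41 to 0.11, from 8.83 to 9.18 in control and 8.79 to 8.99 in the miR-196b arrays. Its relatives MARVELD2, or tricellulin, which sits where 3 cells meet, and MARVELD3 had log2 differences of 0.01 and -0.11. The junctional adhesion molecules JAM2 and JAM3 were at 0.03 and 0.08. All 5 overlapped between groups.

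EPCAM, the epithelial cell adhesion molecule, was at 10.95, 11.14 and 10.98 in control and 10.98, 10.89 and 10.83 in the miR-196b arrays. The groups overlapped, with replicate 1 of the miR-196b arrays inside the control range (log2 difference -0.12, SE 0.09, 95% interval -0.33 to 0.08, limma adjusted p = 0.657). ST14, which encodes the membrane protease matriptase, had a log2 difference of -0.03 with a 95% interval of -0.25 to 0.20.

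The 3 regulators had log2 differences of at most 0.02 in size. GRHL1, a Grainyhead-like transcription factor, was at 5.93, 6.08 and 5.91 in control and 5.74, 5.84 and 6.39 in the miR-196b arrays. Replicate 3 of the miR-196b arrays was the highest of the 6 and replicate 1 the lowest, so the mean difference of 0.02 (SE 0.17, limma adjusted p = 0.979) covered a wide spread. GRHL2, its relative that is known for driving claudin and E-cadherin expression, was at 7.71 to 7.78 and 7.73 to 7.76, with a log2 difference of -0.0032 and a 95% interval of -0.16 to 0.15. ESRP1, a splicing factor of epithelial cells, was at 10.21 to 10.28 in control and 10.08 to 10.41 in the miR-196b arrays (log2 difference 0.0020, 95% interval -0.23 to 0.23).

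**Figure D3:**
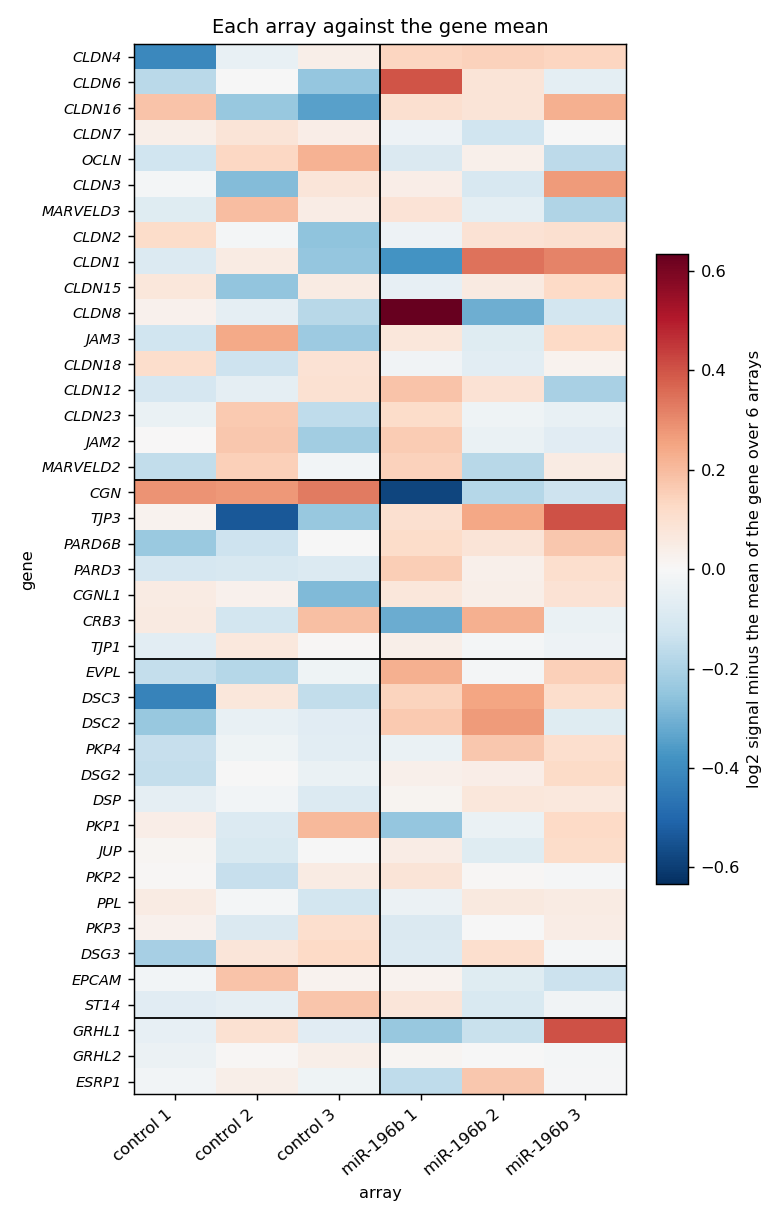
Log2 signal of each junction gene in each array minus that gene's mean over the 6 arrays; rows are the 41 genes in role groups divided by horizontal lines, and the vertical line divides control from miR-196b arrays. CGN changes colour between the groups in all arrays, towards lower values in the miR-196b arrays. So do, by less, CLDN7, also lower there, and PARD3, PARD6B, DSG2 and DSP, which are higher there. CLDN8, CLDN1 and GRHL1 have single arrays that stand apart within the miR-196b group.

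Averaged over the 41 genes, which share arrays and are not replicates, the deviation from each gene's own mean was -0.05, -0.02 and -0.03 in the control arrays and 0.02, 0.03 and 0.05 in the miR-196b arrays (log2). The groups did not overlap: the mean level over the 41 genes was 6.94 ± 0.0183 in control and 7.01 ± 0.0153 in the miR-196b arrays (log2, SD, n = 3 each). No test was made of this mean, since its genes were chosen with results known. By role, the desmosome means did not overlap between groups (-0.10 to -0.0064 against 0.02 to 0.07). The tight junction membrane means did (-0.07 to 0.0061 against -0.0038 to 0.09), as did those of plaque and polarity genes (-0.08 to 0.0020 against -0.06 to 0.08).

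**Figure D4:**
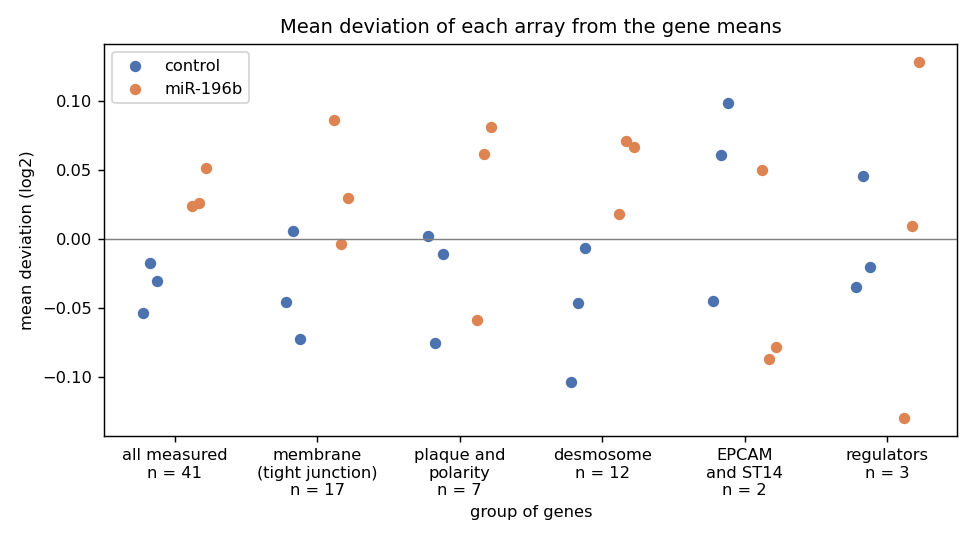
Mean deviation of the junction genes in each array from each gene's own mean (log2), by role; each point is 1 array and n is the number of genes averaged. The 3 miR-196b arrays lie at 0.02 to 0.05 over all 41 genes, against -0.05 to -0.02 in control, and for EPCAM with ST14 and the regulators the groups overlap.

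Promoter sequences were available for 26 of the 41 genes, from 250 bases before to 50 after each RefSeq start site (GRCh38.p14). They were searched on both strands for CAGGTG, the E-box that ZEB and SNAI factors bind (CACCTG on the other strand), and for AACCGGTT, the palindrome of Grainyhead-like factors, neither of which overlaps the other. CAGGTG was found in 14 of 38 junction gene promoters (36.8%), against 20.6% of 35116 promoters, and AACCGGTT in 0 of 38, against 0.134%. A match in a sequence is a description and says nothing of binding in these cells. The promoters of CGN and TJP3 are shown because these genes differed most, and those of CRB3 and of the further CLDN7 start site because each holds 5 copies of the E-box (the first CLDN7 site holds 0), with every CAGGTG or CACCTG in capitals.
CGN (chr1:151511137-151511436, plus strand): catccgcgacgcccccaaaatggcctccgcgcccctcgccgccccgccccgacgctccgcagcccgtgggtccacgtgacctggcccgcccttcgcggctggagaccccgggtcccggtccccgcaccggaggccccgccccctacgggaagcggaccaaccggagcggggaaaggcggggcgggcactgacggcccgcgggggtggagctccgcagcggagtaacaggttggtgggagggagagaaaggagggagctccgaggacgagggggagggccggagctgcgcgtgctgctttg
TJP3, first start site (chr19:3708134-3708433, plus strand): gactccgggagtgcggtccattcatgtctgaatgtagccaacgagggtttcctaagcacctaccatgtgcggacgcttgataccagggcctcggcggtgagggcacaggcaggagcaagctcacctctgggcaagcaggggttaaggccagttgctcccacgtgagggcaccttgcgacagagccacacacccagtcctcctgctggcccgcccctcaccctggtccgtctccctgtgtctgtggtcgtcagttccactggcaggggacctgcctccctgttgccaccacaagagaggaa
TJP3, further start site (chr19:3721487-3721786, plus strand): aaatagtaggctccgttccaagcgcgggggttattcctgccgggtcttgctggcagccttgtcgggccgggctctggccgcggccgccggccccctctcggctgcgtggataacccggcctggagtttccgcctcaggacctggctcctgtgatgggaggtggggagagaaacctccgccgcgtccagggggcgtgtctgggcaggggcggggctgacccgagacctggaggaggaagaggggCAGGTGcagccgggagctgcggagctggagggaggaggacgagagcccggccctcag
CLDN7, further start site (chr17:7262429-7262728, minus strand): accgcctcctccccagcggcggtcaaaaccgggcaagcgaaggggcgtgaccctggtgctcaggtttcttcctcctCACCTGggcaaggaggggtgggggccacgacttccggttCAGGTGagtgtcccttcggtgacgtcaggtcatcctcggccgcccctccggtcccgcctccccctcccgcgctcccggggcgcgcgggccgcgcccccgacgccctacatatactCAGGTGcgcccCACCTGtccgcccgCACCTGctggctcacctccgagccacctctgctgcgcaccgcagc
CRB3 (chr19:6464021-6464320, plus strand): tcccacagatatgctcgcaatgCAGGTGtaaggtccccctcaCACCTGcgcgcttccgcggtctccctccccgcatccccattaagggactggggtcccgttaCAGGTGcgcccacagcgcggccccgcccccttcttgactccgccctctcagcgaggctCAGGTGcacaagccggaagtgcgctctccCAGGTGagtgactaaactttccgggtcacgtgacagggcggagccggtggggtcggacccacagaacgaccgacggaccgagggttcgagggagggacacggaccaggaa
The CGN promoter held 0 copies, the further TJP3 start site 1 copy, at position -7 from the start. CLDN7 and CRB3 had log2 differences of -0.11 and -0.09. The genes with 2 copies at a start site were OCLN, JUP, DSP and DSG2, with log2 differences of -0.15, 0.06, 0.11 and 0.13, so no order by copy number is read from these values.

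Other genes of the same machinery were read the same way, from lists of 55 junction genes and 18 genes of epithelial state. Of 32 further junction genes measured, 21 were higher and 11 lower in the miR-196b arrays, 0 passed the test, and 5 (15.6%) had an unadjusted p below 0.05, all higher, against 9.87% of all named probe sets (5.73% higher). Among these 5, CLDN20 and CLDN10 lay in the dimmest 40% of named probe sets. Of 14 genes of epithelial state measured, 7 were higher and 7 lower, 0 passed, and 3 (21.4%) had an unadjusted p below 0.05 (FN1, ZEB1 and ESRP2). The groups did not overlap for 7 of the 32 (21.9%) and 2 of the 14 (14.3%), against 17.2% of all named probe sets. The 6 with the smallest p were FN1, NECTIN3, AMOT, ESAM, CLDN20 and ESRP2. In all 6 the groups did not overlap, which a choice by p on the same arrays favours.

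NECTIN3, an adhesion receptor of adherens junctions, was at 9.18, 9.28 and 9.42 in control and 9.58, 9.83 and 9.85 in the miR-196b arrays (log2 difference 0.46, SE 0.11, limma adjusted p = 0.338). AMOT, or angiomotin, which binds PATJ at tight junctions, was at 5.19, 5.45 and 5.25 in control and 5.62, 5.87 and 5.55 in the miR-196b arrays (0.38, SE 0.11, 0.395). FN1, the matrix protein fibronectin that epithelial cells gain in mesenchymal transition, was at 6.05, 6.15 and 6.02 in control and 6.71, 6.52 and 6.68 in the miR-196b arrays (0.56, SE 0.08, 0.160). ESRP2, the partner of ESRP1 in epithelial splicing, was at 8.54, 8.51 and 8.64 in control and 8.30, 8.34 and 8.44 in the miR-196b arrays (-0.20, SE 0.08, 0.478), beside 0.0020 for ESRP1. ESAM, an adhesion molecule known from endothelium, and CLDN20 had log2 differences of 0.29 each. None of these 6 passed the test. Of the E-box repressors, named after their values were seen, ZEB1 had a log2 difference of 0.39 (SE 0.15, limma adjusted p = 0.482), with replicate 1 of the miR-196b arrays inside the control range. SNAI2 was at 0.32, ZEB2 at -0.19 and SNAI1 at 0.0027, each with overlapping groups and none past the test. VIM, also named after its values were seen, had a log2 difference of 0.17 with overlapping groups at its brightest probe set. Its dimmer probe sets, both among the dimmest 40%, were at 0.28 and 0.56 without overlap, with gaps of only 0.02 and 0.0065 between the groups. Neither passed the test (limma adjusted p = 0.507 and 0.401).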

How the data were processed

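The authors deposited log2 values, 1 per probe set and array, and the submitters' processing notes name RMA and Partek 6.6 with no order or options. RMA corrects background and quantile normalizes between arrays, which removes differences in overall level. RMA output is in log2, which set the log base, and no genome build is given in the sources used here. Of 53617 probe sets, 16098 had 1 gene symbol in the platform annotation and 37519 had none here and entered no fit but that of all probe sets.

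In R 4.3.3 with limma 3.58.1, the 16098 named probe sets were fitted with lmFit and eBayes (no filter, trend or robust fit), and p-values were adjusted by Benjamini-Hochberg over all of them, with 4 residual and 3.23 prior degrees of freedom. Differences are miR-196b minus control. An exact permutation test of 3 against 3 arrays cannot go below p = 0.1, so non-overlap of groups is given as a description. The fit was also run on simulated data with planted differences and independent normal noise, as a check of the code. No conclusion about the junction genes is drawn from that run. The members and lists were chosen with earlier results of these data known, so no list was tested. Values in every array are given for the 12 members with the smallest unadjusted p and the first of each role group by p. Those of DSP and CLDN7 were added after their values were seen. Of the other listed genes the 6 with the smallest p were named. KRT18, KRT19, CDX2, LUM, THY1, DCN, CSF1R, CD68, CD14, CLDN10, VIM and the E-box repressors were added after their values were seen. Same-numbered arrays of the groups did not deviate together (r = 0.0085 to 0.037 across probe sets), so the numbers were not taken as pairs. Tried alternatives were a filter on dim probe sets, another variance prior, centring, repeated quantile normalization, array weights, a replicate block, each array left out, all probe sets, and averaging the probe sets of each gene. No batch is named in the labels, and the number of arrays limits the precision. Figures were drawn with matplotlib 3.10.9.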

Additional observations from a re-analysis of the deposited data

How the results depend on the processing

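No junction gene passed the test under any of the 14 alternatives run, and the lowest adjusted p (limma) of any was 0.0926, for CGN. CGN kept its lower value in all of them (-0.68 to -0.45 on the log2 scale) and TJP3 its higher one (0.36 to 0.64). In sign, 25 of 41 genes kept their direction in all alternatives and 16 turned in at least 1. The dim filter, the variance prior, the replicate block, all probe sets and averaging left the log2 differences unchanged by construction. Only the other alternatives could turn a sign. The count of named probe sets past the threshold, 9, was 22 without the dimmest 40%, 91 with a trended and robust variance prior, 1 with the replicate block, and 2 to 3 with an array left out. The block changed no call of a junction gene, and no same-numbered pair correlated above 0.1. The median log2 difference of junction genes was 0.0436 to 0.0789 with an array left out, highest without replicate 2 of the miR-196b arrays. The count of genes with groups that did not overlap was 10 to 14 with an array left out, where fewer arrays overlap less by construction.

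For the values that turned sign the cause was not tested. Median centring gave -0.0020 for DSG3 and -0.0056 for ESRP1. A repeated quantile normalization gave -0.0032 for GRHL1, -0.0067 for MARVELD2 and -0.0082 for ESRP1. Array weights gave -0.020 for DSG3, -0.0099 for GRHL1 and -0.014 for MARVELD2. With an array left out, the ranges that crossed 0 were -0.035 to 0.157 for CLDN12, -0.019 to 0.142 for CLDN15, -0.047 to 0.117 for CLDN23, -0.144 to 0.329 for CLDN8, -0.222 to 0.048 for CRB3, -0.098 to 0.070 for DSG3, -0.083 to 0.083 for ESRP1, -0.180 to 0.141 for GRHL1, -0.023 to 0.014 for GRHL2, -0.069 to 0.124 for JAM2, -0.018 to 0.218 for JAM3, -0.059 to 0.106 for MARVELD2, -0.0021 to 0.097 for PKP2, -0.084 to 0.016 for PKP3, -0.074 to 0.052 for ST14 and -0.040 to 0.027 for TJP1.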
